A study of Mus musculus with 19 samples.

Results

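A set of 4 ChIP-seq samples measured acetylation of histone H3 at lysine 27 (H3K27ac) in cultured mouse hippocampal neurons, and are compared here as 2 untreated samples against 2 samples excited with bicuculline and 4-aminopyridine (Bic/4AP). They are 4 of 19 samples in all, chosen by their labels as all those with the H3K27ac antibody. All 4 came from hippocampus of ICR mice at embryonic day 17, were kept 10 days in vitro and used a mouse monoclonal antibody from MBL, and the treated neurons had Bic/4AP for 3 h. Bicuculline blocks GABA-A receptors and 4-aminopyridine blocks potassium channels, so that together they drive bursts of firing. An untreated and a Bic/4AP sample were submitted together at first (the first pair), and another untreated and Bic/4AP sample later (the second pair). The labels do not say whether the samples of a pair shared a culture, how many animals were pooled or how many reads were sequenced. Beside these samples stand 3 untreated and 3 Bic/4AP RNA-seq libraries from ICR mice (with 3 tetrodotoxin, TTX, libraries in the same fit), 2 untreated lists of H3K4me1 from ICR mice, and 1 bisulfite library each of untreated, Bic/4AP and TTX neurons from C57BL/6 mice. TTX blocks sodium channels and silences the neurons, and how long it was applied is not stated in the labels. The strain differs between the bisulfite and the other samples.

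H3K27ac is laid down by the acetyltransferases CBP and p300 and marks active promoters and enhancers, while H3K4me1 marks enhancers both active and poised. In neurons, calcium entry activates the factor CREB, which binds cAMP response elements (CRE) and brings in CBP, and within minutes to hours genes such as Fos, Nr4a1 and Bdnf are transcribed. Acetylation at the promoters and enhancers of such genes is known to rise with activity.

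The results below turn on promoters, so a few are shown first. Each is the RefSeq sequence (GRCm38.p6) of the 250 bases before a gene's start, written 5′ to 3′ along the gene, with capitals for TGACG on either strand, the core of the CRE (the full CRE, TGACGTCA, holds it on both strands). The first 3 are of activity genes whose promoters are described below: Fos at chr12:85473640-85473889 on the plus strand, Nr4a1 at chr15:101266596-101266845 on the plus strand, and Fosb at chr7:19310046-19310295 on the minus strand.
Fos: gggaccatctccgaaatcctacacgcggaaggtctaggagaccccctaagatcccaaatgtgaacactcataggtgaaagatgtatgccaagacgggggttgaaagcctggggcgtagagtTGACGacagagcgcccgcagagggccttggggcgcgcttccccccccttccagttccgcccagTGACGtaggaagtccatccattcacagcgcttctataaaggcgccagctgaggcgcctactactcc
Nr4a1: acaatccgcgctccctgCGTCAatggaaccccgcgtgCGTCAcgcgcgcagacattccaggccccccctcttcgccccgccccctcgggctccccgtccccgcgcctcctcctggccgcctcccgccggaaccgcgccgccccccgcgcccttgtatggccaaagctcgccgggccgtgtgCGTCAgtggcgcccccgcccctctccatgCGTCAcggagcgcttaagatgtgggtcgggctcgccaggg
Fosb: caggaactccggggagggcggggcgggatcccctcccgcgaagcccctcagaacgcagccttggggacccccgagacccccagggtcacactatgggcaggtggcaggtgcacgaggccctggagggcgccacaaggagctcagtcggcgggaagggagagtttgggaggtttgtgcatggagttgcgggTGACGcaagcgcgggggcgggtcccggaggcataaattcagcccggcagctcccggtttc
The next 4 belong to genes with a peak in both Bic/4AP lists and in neither untreated list at or beside the start: Gpr3 at chr4:133212537-133212786 on the minus strand, Errfi1 at chr4:150854820-150855069 on the plus strand, Lekr1 at chr3:65665978-65666227 on the plus strand and Bdp1 at chr13:100104071-100104320 on the minus strand. The last, Nedd9 at chr13:41359002-41359251 on the minus strand, is such a gene with no TGACG in this stretch. These genes are examples and do not measure how common TGACG is. The same stretch of Spred3, Sik2 and Ercc5, which are also such genes, holds none, while that before a listed start of Zdbf2 holds it 3 times. Of all 500 promoter windows (described below) under such peaks, 265 (53.0%) held TGACG.
Gpr3: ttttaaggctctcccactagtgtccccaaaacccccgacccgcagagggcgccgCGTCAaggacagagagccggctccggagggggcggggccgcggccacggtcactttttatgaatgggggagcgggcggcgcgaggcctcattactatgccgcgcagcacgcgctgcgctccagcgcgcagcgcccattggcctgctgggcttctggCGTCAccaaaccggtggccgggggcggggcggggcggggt
Errfi1: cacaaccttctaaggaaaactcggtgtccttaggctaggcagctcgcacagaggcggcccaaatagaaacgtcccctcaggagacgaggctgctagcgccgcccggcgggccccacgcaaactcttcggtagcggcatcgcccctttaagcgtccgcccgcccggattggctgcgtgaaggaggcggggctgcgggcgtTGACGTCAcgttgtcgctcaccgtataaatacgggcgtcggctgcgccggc
Lekr1: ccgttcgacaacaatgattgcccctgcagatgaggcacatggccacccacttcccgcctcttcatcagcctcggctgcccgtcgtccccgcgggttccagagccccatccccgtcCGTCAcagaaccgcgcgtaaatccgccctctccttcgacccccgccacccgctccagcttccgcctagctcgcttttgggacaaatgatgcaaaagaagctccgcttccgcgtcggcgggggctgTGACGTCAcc
Bdp1: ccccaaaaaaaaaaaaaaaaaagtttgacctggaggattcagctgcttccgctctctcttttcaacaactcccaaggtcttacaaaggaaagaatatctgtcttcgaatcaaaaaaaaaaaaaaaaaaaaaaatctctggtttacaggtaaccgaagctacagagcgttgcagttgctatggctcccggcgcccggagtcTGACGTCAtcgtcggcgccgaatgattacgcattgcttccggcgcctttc
Nedd9: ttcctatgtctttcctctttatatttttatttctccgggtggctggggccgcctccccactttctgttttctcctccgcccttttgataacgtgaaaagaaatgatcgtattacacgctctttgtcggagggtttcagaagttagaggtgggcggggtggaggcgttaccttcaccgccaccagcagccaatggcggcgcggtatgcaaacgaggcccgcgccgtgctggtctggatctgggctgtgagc
Nr4a1 holds TGACG 4 times, Fos and Gpr3 2 times each and Fosb 1 time, and Errfi1, Lekr1 and Bdp1 hold the full CRE.

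The lists hold the regions (peaks) that the authors called in each sample, with a score per peak that is 50 or higher in every list. The 2 pairs differed far more from each other than the treatments did within a pair. The untreated list of the first pair held 4846 peaks and the Bic/4AP list 7721, against 49701 and 55035 in the second pair, 117303 peaks in all. Within both pairs the Bic/4AP list was longer and its peaks wider. The median peak was 378 bp wide in the untreated and 785 bp in the Bic/4AP list of the first pair, and 922 bp and 998 bp in the second. The peaks covered 2.37 Mb untreated and 7.77 Mb with Bic/4AP in the first pair, a ratio of 3.28, and 71.6 Mb and 86.3 Mb in the second, a ratio of 1.21. Peaks of 5 kb or more numbered 0 untreated and 24 with Bic/4AP in the first pair, and 1345 and 2064 in the second. With 2 samples against 2, the smallest two-sided p of an exact permutation test is 0.333, so the peak comparisons are counts without a test, and the treatment and the length of a list cannot be told apart within a pair.

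Overlap of 1 bp or more decided whether a peak was shared. In the first pair 5147 peaks (66.7%) of the Bic/4AP list and 1960 (40.4%) of the untreated list had no partner in the other list. In the second pair these were 28227 (51.3%) with Bic/4AP and 21733 (43.7%) untreated. With the same number of top-scoring peaks from both lists of the first pair, 2734 were in the Bic/4AP list alone and 2424 in the untreated list alone. Unshared peaks were the weak ones. Their median score percentile within their own list was 39.97 with Bic/4AP and 35.3 untreated in the first pair, and 36.0 and 35.7 in the second. Across deciles of score, the unshared part became smaller from the lowest to the highest decile in all 4 lists. In the highest decile it was 21.3% with Bic/4AP and 7.22% untreated in the first pair, and 7.43% and 6.16% in the second.

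**Figure D1:**
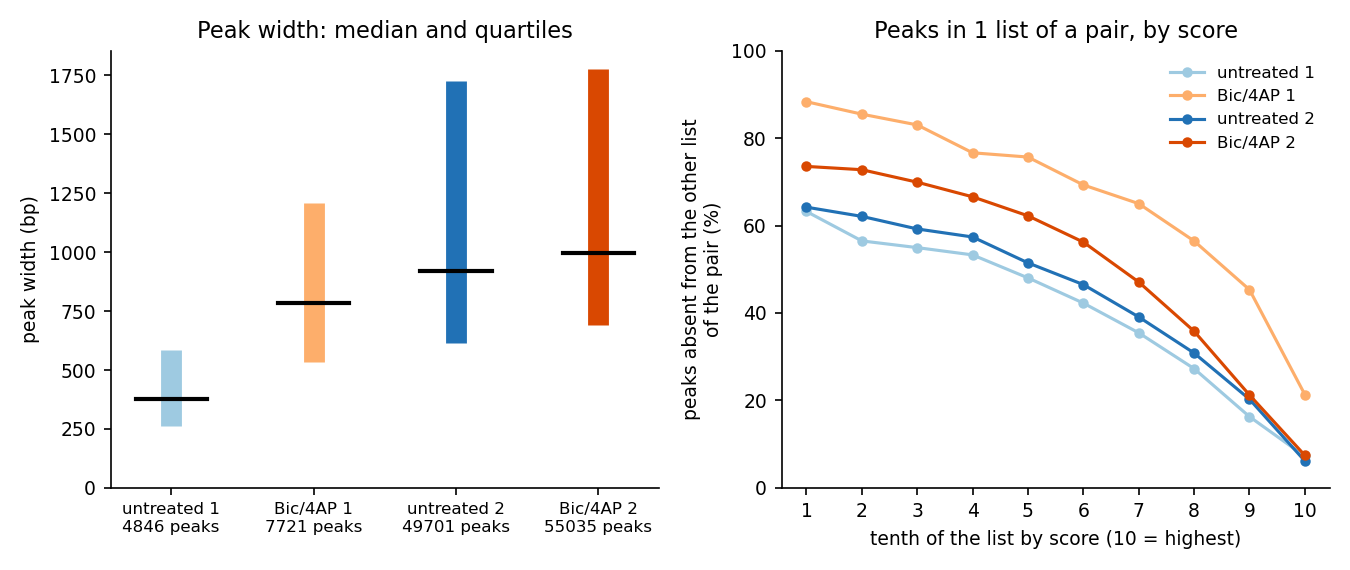
Left, peak width in bp of each of the 4 H3K27ac lists, with bars from the lower to the upper quartile and a black line at the median. Right, percent of peaks absent from the other list of the pair, by decile of score within the list. Medians run from 378 bp in the first untreated list to 998 bp in the second Bic/4AP list, and the unshared part falls with score in every list.

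The pairs were then set against each other. Of the 5147 peaks in the first Bic/4AP list alone, 1133 (22%) met a peak of the second Bic/4AP list alone, 3597 (69.9%) met peaks of both second lists, 90 (1.75%) met the second untreated list alone and 327 met neither. Of the 1960 peaks in the first untreated list alone, 181 (9.23%) met the second untreated list alone, 105 (5.36%) the second Bic/4AP list alone and 1401 (71.5%) both. Most of what separated the lists of the first pair was therefore present in both lists of the second.

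Merging the overlapping peaks of all 4 lists gave 73347 sites. Of these, 974 (1.33%) had a peak in both Bic/4AP lists and in neither untreated list and are called replicated gains. The reverse pattern, called replicated losses, held for 131 sites (0.179%), and 2513 sites (3.43%) were in all 4 lists. The imbalance shrank with list length: with the 4846 top-scoring peaks of every list there were 493 gains and 381 losses, and with equal lengths within each pair there were 456 gains and 166 losses. The second pair alone supplied 27074 sites of its Bic/4AP list only and 21504 of its untreated list only. A replicated gain was 1348.5 bp wide at the median, with a median score percentile of 35.5 in the first and 68.9 in the second Bic/4AP list.

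Sites in all 4 lists allowed the length covered by peaks to be compared. This length rests on the same peak calls, and the peaks of the whole Bic/4AP lists were wider too. The median length covered by peaks at these 2513 sites was 458 bp untreated and 1193 bp with Bic/4AP in the first pair, and 2404 bp and 3112 bp in the second. The Bic/4AP peaks were the longer ones at 95.1% of sites in the first pair, with a median ratio of 2.35 (quartiles 1.64 to 3.42). In the second pair they were longer at 78.3%, with a median ratio of 1.24 (quartiles 1.02 to 1.61). The log2 ratio of a site in the first pair went with that in the second with a Spearman rho of 0.31 (Pearson r 0.31), a description over sites that share the same 4 libraries.

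Where the replicated gains lay set them apart from the losses. Of the 974 gains, 392 (40.2%) touched a promoter window (250 bases before to 50 after a listed start), against 7 of 131 losses (5.34%), 56.4% of the sites in all 4 lists and 9.70% of all sites. With equal list lengths within each pair, 50.9% of gains and 6.63% of losses did so. Losses lay farther from genes: among sites linked to a gene with a listed start, the median distance to it was 0.584 kb for gains, 13.4 kb for losses and 11.8 kb for all sites.

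The CRE core was more frequent in the promoters of gains than in promoters at large. Of the 500 promoter windows (300 bases, both strands searched) under replicated gains, 265 (53.0%) held TGACG, against 38.3% of the 1861 windows under sites in all 4 lists and 24.2% of all 21485 windows. The full CRE stood in 6.80%, 4.84% and 2.30% of them. The median GC content was 62.7% under gains and under sites in all 4 lists and 56.7% over all windows, and the median number of CG pairs, which TGACG contains, was 25, 24 and 13. The part of base composition in these shares was not tested. The AP-1 motif TGANTCA, bound by Fos and Jun proteins, was in 3.40% of the windows under gains, 3.60% under sites in all 4 lists and 7.28% of all, and the E-box CACGTG in 11.8%, 8.76% and 8.08%. These are counts of letters and do not show binding.

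Promoters of rapid and late activity genes were in the Bic/4AP list alone at a higher share than promoters at large in both pairs. Among all 11305 genes with expressed RNA and a listed promoter, 18.2% had a window in the Bic/4AP list alone in the first pair and 15.4% in the second, and 1.10% and 3.12% in the untreated list alone. Of the 27 rapid activity genes (transcription factors and regulators induced without new protein), the promoter was in the first untreated list for 2 and in the first Bic/4AP list for 11, and in the second lists for 11 and 23. In the first pair 9 of 27 (33.3%) were in the Bic/4AP list alone, in the second 12 of 27 (44.4%), and in neither pair was any in the untreated list alone. With equal list lengths within each pair, 6 (22.2%) and 11 (40.7%) of the 27 were in the Bic/4AP list alone, against 13.9% and 14.7% of all genes. Fos, Nr4a1, Nr4a2 (nuclear receptors both) and Gadd45b (a stress sensor linked to DNA demethylation) were in the Bic/4AP list alone in both pairs, 4 of 27 (14.8%) against 3.32% of all genes. Fosb, Ier5, Klf4, Maff, Btg2, Csrnp1, Arl4d and Egr2 had a promoter peak in the second Bic/4AP list only. Per1, of the circadian clock, and Fbxo33 were in all 4 lists, while Atf3, Egr4, Cyr61 and Amigo3 were in none.

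Among 24 late activity genes (effectors such as neuropeptides, proteases and synaptic proteins), promoters were in the first lists for 2 untreated and 13 with Bic/4AP, and in the second for 12 and 17. In the Bic/4AP list alone were 11 (45.8%) in the first pair and 5 (20.8%) in the second. Bdnf (a neurotrophin), Pcsk1 (a prohormone convertase), Scg2 (a secretogranin), Inhba (an activin subunit), Rgs4 and Plk2 were in the first Bic/4AP list but not the first untreated list, and in both second lists. Rgs2, a regulator of G protein signalling, and Tll1, a metalloprotease, were in both Bic/4AP lists only. Among 16 genes of MAP kinase feedback, which shut off the kinase pathway that activity turns on, the counts were 1 and 6 in the first pair and 10 and 11 in the second. In the Bic/4AP list alone were 5 of them (31.2%) in the first pair and 1 (6.25%) in the second, above and below the shares of all genes.

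The other groups gave shares on both sides of that of all genes. Of 51 excitatory synapse genes, 10 untreated and 18 with Bic/4AP had a promoter peak in the first pair and 33 and 35 in the second. For 20 inhibitory synapse genes these counts were 4, 8, 12 and 15, and for 19 histone acetylation genes 6, 11, 13 and 14. Crebbp and Ep300, which encode CBP and p300, were in all 4 lists. For 21 DNA methylation genes they were 1, 7, 10 and 12. Housekeeping genes moved too, with 2 of 12 promoters untreated and 7 with Bic/4AP in the first pair, and 9 and 11 in the second. In the Bic/4AP list alone, in the first and second pair, were 19.6% and 5.88% of excitatory synapse, 20% and 15% of inhibitory synapse, 33.3% and 9.52% of DNA methylation, 26.3% and 10.5% of histone acetylation and 41.7% and 16.7% of housekeeping promoters. Among the lists of neuronal and housekeeping genes, the rapid activity list had the highest of these shares in the second pair, and the late activity list in the first.

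**Figure D2:**
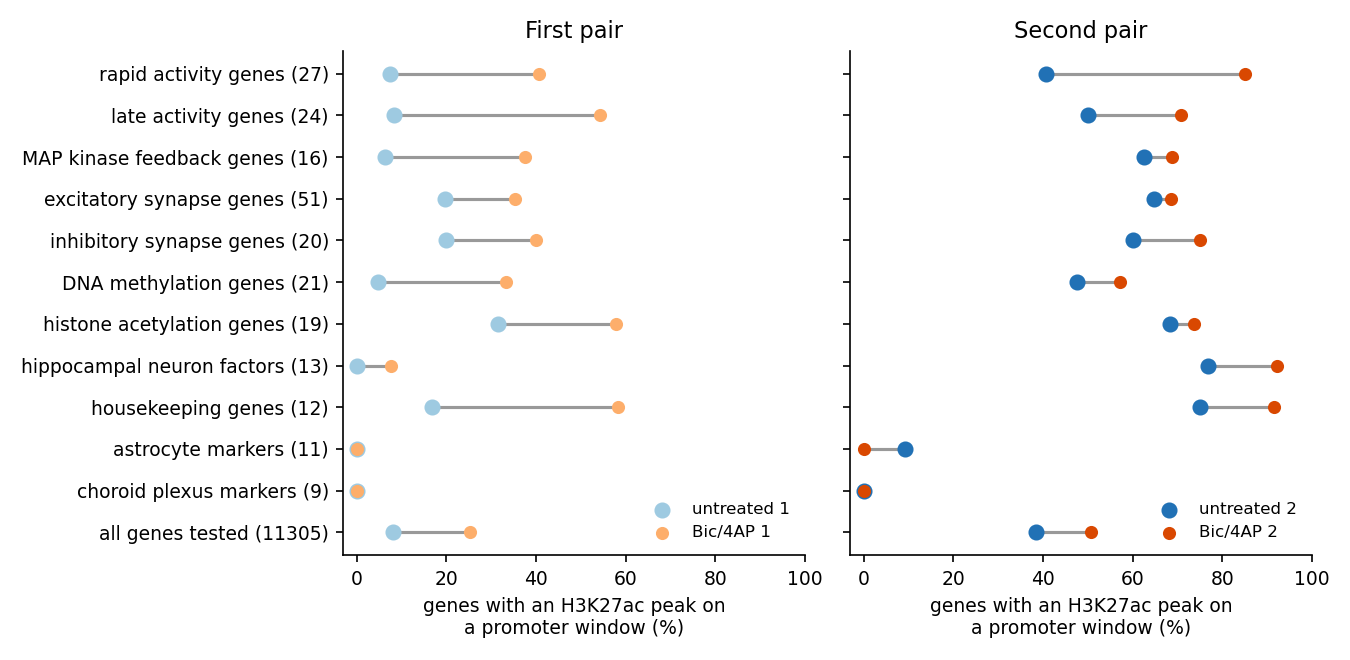
Percent of genes of each list (number with a listed promoter in brackets) whose promoter window holds an H3K27ac peak, untreated and with Bic/4AP, in the first (left) and second (right) pair. Rapid activity genes went from 7.41% to 40.7% and from 40.7% to 85.2%, against 8.09% to 25.2% and 38.4% to 50.7% for all genes.

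By promoter peaks, the markers matched the labelled cells in the longer lists of the second pair. Promoters of 8 and 9 of 10 neuron markers and of 10 and 12 of 13 hippocampal neuron factors had a peak in the second untreated and Bic/4AP lists, and 0 and 1 of the 13 factors in the first pair. Promoters of 6 oligodendrocyte lineage, 6 microglia, 7 vascular and mural and 9 choroid plexus markers were in none of the 4 lists, and 1 of 11 astrocyte promoters was in the second untreated list alone. Of 9 progenitor and cycling promoters, 1 was in each list of the second pair and none in the first. Over the gene and 10 kb on each side, peaks were less confined to neuronal genes. In the second lists (untreated, then Bic/4AP) they lay at 15 and 15 of 15 neuron markers and 16 and 16 of 17 factors. They also lay at 5 and 5 of 14 astrocyte, 2 and 3 of 10 oligodendrocyte lineage and 3 and 4 of 10 microglia markers. For vascular and mural markers these counts were 6 and 3 of 12, and for progenitor and cycling markers 3 and 3 of 10.

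The loci of the activity genes showed more than their promoters. Sites were linked to the gene with the nearest start within 50 kb, and the length covered by peaks at these sites was summed in each list. For scale, the total length of the Bic/4AP list over that of the untreated list was 3.28 in the first pair and 1.21 in the second. At Fos, the AP-1 subunit, this length was 1981 bp untreated and 10083 bp with Bic/4AP in the first pair and 5060 bp and 25444 bp in the second. The site over its start, chr12:85471343-85475267, was covered for 308 bp and 3376 bp in the first pair, and for 0 bp and 3910 bp in the second. The 308 bp of the first untreated list lay outside the promoter window, so that the window is counted as in the Bic/4AP lists alone while the site is not a replicated gain. A site 36.9 kb before the start, chr12:85433531-85440368, was in all 4 lists and widened from 1673 bp to 2901 bp and from 2509 bp to 6838 bp. Both pairs thus gave longer peaks with Bic/4AP at the promoter and at this upstream site. Such widening was common: peaks were longer at 95.1% of the 2513 sites in all 4 lists in the first pair and 78.3% in the second. The median ratios were 2.35 and 1.24, and the upstream site widened by less than the median in the first pair and by more in the second.

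Nr4a1 had 406 bp untreated and 1472 bp with Bic/4AP in the first pair, and 0 bp and 21676 bp in the second. Of the latter, 11392 bp was 1 site at chr15:101243971-101255362, whose middle is 17.2 kb before the start, in the second Bic/4AP list alone. Fosb went from 0 bp to 531 bp and from 648 bp to 6664 bp. It had 1 replicated gain, chr7:19300772-19302648, with its middle 8.34 kb past the start. This site touched a promoter window other than that of Fosb, whose own window had a peak in the second Bic/4AP list only. Junb, another AP-1 subunit, went from 0 bp to 2815 bp and from 4875 bp to 7951 bp, all in 1 site over its promoter at chr8:84975482-84983432.

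Other loci differed less, or in 1 pair only. Arc, a postsynaptic protein, had no linked peak in the first pair, and 552 bp untreated and 17346 bp with Bic/4AP over 7 sites in the second. Nptx2, a secreted binder of AMPA receptors, had 1197 bp in the second Bic/4AP list and none elsewhere. Bdnf went from 1526 bp to 4757 bp in the first pair and from 24140 bp to 25321 bp in the second. Npas4, a neuronal activity factor, went against the others in the first pair, with 2374 bp untreated and 0 bp with Bic/4AP, and had 11726 bp and 15613 bp in the second. Its RNA rose all the same, from 8.50 ± 1.5 to 124 ± 8.94 RPKM (SD, n = 3 libraries per group).

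Among the enzymes of DNA methylation, Tet2, which oxidises methylcytosine, went from 3094 bp to 6640 bp and from 11393 bp to 24874 bp. A replicated gain linked to it lay 26.8 kb from its start at chr3:133516525-133518673. Dnmt3a, a de novo methyltransferase, went from 1491 bp to 3239 bp and from 9186 bp to 22559 bp. Dnmt1, the maintenance enzyme, had peaks in the second Bic/4AP list only (7654 bp over 6 sites). Tet1 had 2227 bp untreated and 790 bp with Bic/4AP in the second pair and none in the first, and Dnmt3b had none in any list. Tet3 had 1130 bp and 531 bp at sites linked to it in the second pair and none in the first, but its promoter window held a peak in the first Bic/4AP list and in both second lists, at sites whose middle lay nearer to another start. Over the Tet3 gene and 10 kb on each side the peaks covered 0 bp untreated and 2038 bp with Bic/4AP in the first pair, and 4038 bp and 10446 bp in the second. RNA did not follow these lengths gene by gene. By limma with Benjamini-Hochberg adjustment, Tet2 RNA rose from 23.6 ± 1.2 to 32.4 ± 0.23 RPKM (SD, n = 3; adjusted p = 1.51e-05). Dnmt1 RNA fell from 13.9 ± 0.64 to 8.46 ± 0.55 RPKM (adjusted p = 1.10e-05), and Dnmt3a had 37.7 ± 0.82 and 36.7 ± 0.53 RPKM (adjusted p = 0.488).

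**Figure D3:**
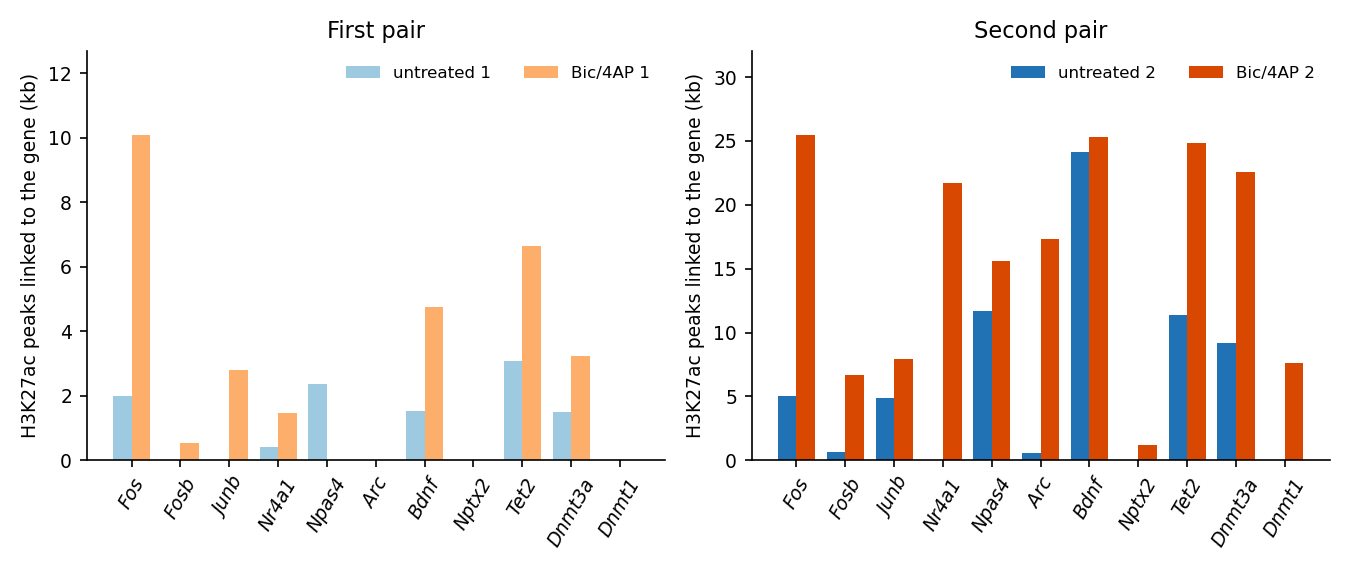
Length in kb of the H3K27ac peaks linked to each gene (nearest start within 50 kb) in the untreated and Bic/4AP lists of the first and second pair, 1 sample per bar. Fos, Nr4a1, Fosb, Junb, Bdnf, Tet2 and Dnmt3a were longer with Bic/4AP in both pairs, and Npas4 was shorter in the first. The whole Bic/4AP lists were longer too, by ratios of 3.28 and 1.21. Bdnf, Tet2 and Dnmt3a lengthened by less than that ratio in the first pair, and Bdnf in the second as well.

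The same measure was taken for every gene, over its span and 10 kb on each side. Of the 14704 genes with a position and expressed RNA, 34.9% had a longer covered length with Bic/4AP in both pairs and 2.05% a shorter one. It was longer in both pairs for 20 of 34 rapid activity genes (58.8%), 18 of 34 late activity genes (52.9%) and 12 of 18 MAP kinase feedback genes (66.7%), but also for 11 of 16 housekeeping genes (68.8%). Taken as a share of each list's total length, which removes the difference between the totals, the counts were 17 of 34, 16 of 34 and 8 of 18 for the activity lists and 5 of 16 for housekeeping genes, against 22.3% of all genes. The share was smaller in both pairs for 1, 2 and 2 genes of the activity lists and for 5 of the 16 housekeeping genes, against 7.66% of all genes. Above all genes on both scales were the activity and housekeeping lists, and also the histone acetylation (61.5%, then 38.5%), inhibitory synapse (50%, then 38.5%), DNA methylation (43.5%, then 26.1%) and neuron marker lists (46.7%, then 26.7%), while the excitatory synapse list was above on the first only (45.2%, then 20.5%).

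By this measure, and chosen after the values were seen, the genes with the greatest gain in length in both pairs included Bach2, Rapgef4 and Dlgap1. The ranking is by bp without regard to gene length, so long genes have more room to lead it. Bach2, a transcriptional repressor, had 1818 bp and 16678 bp in the first pair and 104670 bp and 178173 bp in the second, and its RNA rose from 10.4 ± 2.13 to 22.8 ± 1.07 RPKM (SD, n = 3). Rapgef4, a cAMP-activated exchange factor, had 1351 bp and 15175 bp, then 69463 bp and 156389 bp, with RNA at 24.4 and 25.2 RPKM. Dlgap1, a postsynaptic scaffold, had 1191 bp and 11192 bp, then 120054 bp and 343981 bp, and its RNA fell from 46.4 to 39.2 RPKM. The greatest losses in length in both pairs included Sipa1l3 (2974 bp and 0 bp, then 61244 bp and 41159 bp) and Rimbp2, a protein of the presynaptic active zone (3831 bp and 956 bp, then 28405 bp and 20986 bp). RNA of both fell, to 9.80 and 12 RPKM from 31.7 and 43.7. Nr4a3 was also among these (1656 bp and 0 bp, then 18457 bp and 15495 bp), although its RNA rose from 45.1 to 114 RPKM.

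H3K27ac was next set beside RNA. Among 14782 genes with tested RNA, 29.5% were called higher and 42.6% lower after Bic/4AP, and 3.31% rose and 17.7% fell 2-fold or more on the log2(RPKM + 1) scale. The calls depend on scaling: the median log2 change over all genes was -0.12 as deposited and 0.06 after quantile normalization, after which 5734 genes rose and 4563 fell against 4364 and 6292 before. RNA of choroid plexus markers fell for 13 of 14 genes with a median log2 change of -3.73. The promoters of the 9 that have a listed one were in none of the 4 H3K27ac lists. Over the gene and 10 kb on each side, peaks lay at 0 and 1 of the 14 in the first pair (untreated, then Bic/4AP). In the second pair they lay at 4 and 5. The part of these markers in the RNA differences was not tested.

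Promoters were in the Bic/4AP list alone more often than at large where RNA rose 4-fold or more. Of the 47 genes with a listed promoter whose RNA rose 4-fold or more, 0 had a promoter peak in the first untreated list and 13 in the first Bic/4AP list, and 11 and 27 in the second lists. In the Bic/4AP list alone were 13 (27.7%) in the first pair and 17 (36.2%) in the second, against 18.2% and 15.4% of all genes. Of the 430 genes whose RNA fell 4-fold or more, 39 (9.07%) and 45 (10.5%) were. Between these ends, the first pair had no steady order, with 23.4% for all genes that rose and 17.1% for those that rose 2-fold or more. The latter was below the 18.2% of all genes. In every list, a smaller share of the genes that fell 4-fold or more had a promoter peak. It was 12.1% in the first and 29.3% in the second Bic/4AP list, against 25.2% and 50.7% of all genes. The part of this low occupancy in their 9.07% and 10.5% was not tested. Promoters in the untreated list alone were 1.22% and 5.02% among genes that fell 2-fold or more, and 0.285% and 0.855% among genes that rose 2-fold or more.

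**Figure D4:**
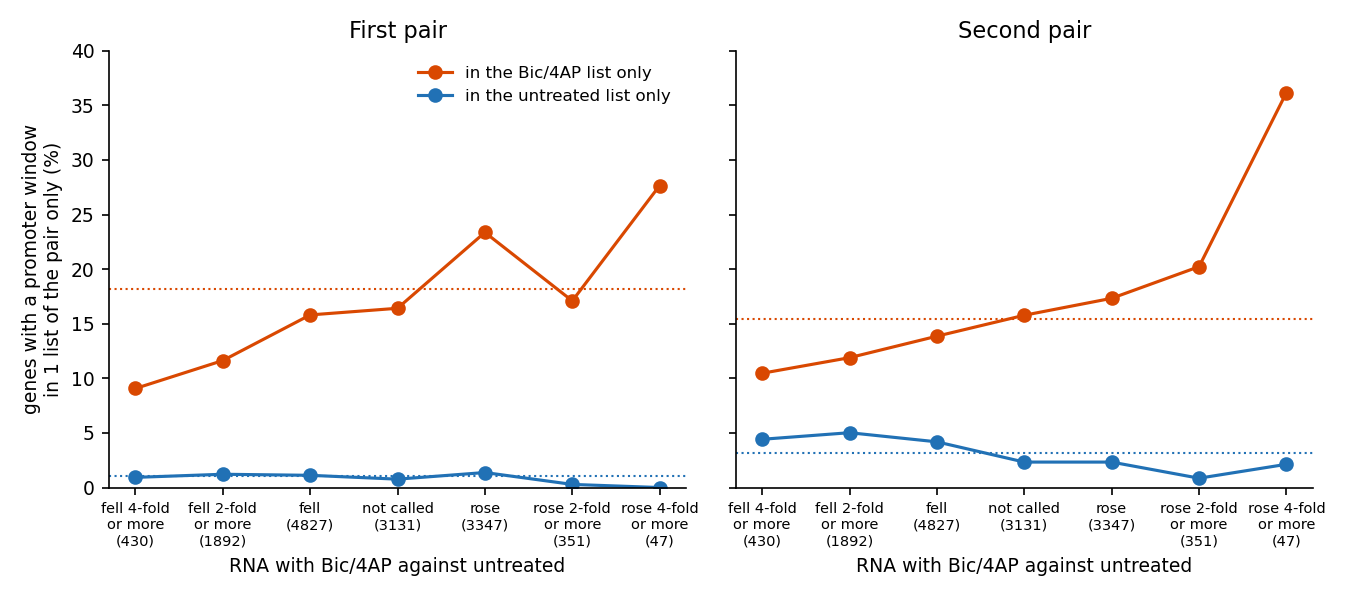
Percent of genes with a promoter window in the Bic/4AP list only (orange) or the untreated list only (blue) of a pair, by RNA change (number of genes in brackets; groups of 2-fold and 4-fold are contained in the wider ones). Dotted lines mark all genes tested. The genes that rose 4-fold or more reach 27.7% and 36.2%, and those that fell 4-fold or more 9.07% and 10.5%.

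Genes linked to replicated gains were 676 with tested RNA, 4.60% of the 14704 genes tested that had a position. Of them 263 (38.9%) rose and 258 (38.2%) fell, and 42 (6.21%) rose and 69 (10.2%) fell 2-fold or more. Against 29.5% and 42.6% of all genes, the share that rose was higher, but it was 42.9% for genes linked to sites in all 4 lists (34.2% fell) and 37.3% for those linked to sites of the second Bic/4AP list only. With every gene within 50 kb linked, the share by gains was 30.2% against 29.5%, and 43.3% against 42.6% fell. After quantile normalization it was 41.4% against 38.8%, with 26.3% against 30.9% fallen. Of the 57 genes linked to losses (0.388% of genes tested), 17 rose and 22 fell. Read the other way, a gain was linked to 8.57% of genes that rose 2-fold or more, to 7 of 70 (10.0%) that rose 4-fold or more, and to 2.64% of those that fell 2-fold or more.

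Strong rises among genes linked to a gain included regulators of signalling. Fosb RNA stood at 1.27, 1.30 and 0.784 RPKM in the untreated libraries and at 102, 108 and 115 RPKM in the Bic/4AP libraries (log2 change 5.70 ± 0.12 SE, limma adjusted p = 2.57e-10). Its gain lay 8.34 kb from its start, on a promoter window other than its own. Gadd45b, whose gain lay 11 kb from its start at chr10:80939901-80942365, had 5.33, 5.62 and 4.13 RPKM before and 43.3, 43.5 and 45.3 RPKM after Bic/4AP (log2 change 2.91 ± 0.12 SE, adjusted p = 4.08e-09). Gpr3, a receptor that raises cAMP on its own, had its gain over the promoter at chr4:133211231-133212634. Its RNA was 4.39, 6.78 and 3.41 RPKM in untreated libraries and 38.2, 35.1 and 39.8 RPKM in treated ones (log2 change 2.76 ± 0.16 SE, adjusted p = 3.69e-08). Errfi1, an inhibitor of the EGF receptor, had its gain at chr4:150855125-150856041 just past the stretch printed above. Its untreated libraries had 20.2, 22.7 and 18 RPKM and its Bic/4AP libraries 85.5, 85.3 and 102 RPKM. Nedd9, an adhesion scaffold, had its gain at chr13:41357066-41359865 over its promoter. Its untreated libraries had 8.55, 10.3 and 7.0 RPKM and its Bic/4AP libraries 38.8, 37.4 and 38.4 RPKM. For none of these genes did the 2 groups of libraries overlap, but this was common. Of all 14782 genes tested, the Bic/4AP libraries lay wholly above the untreated ones for 4219 and wholly below for 6316. Among the 676 genes linked to gains these were 261 and 255. Ifi202b, Cyr61, Fam46a and Zdbf2 had log2 changes from 1.90 to 2.05. Cyr61 RNA was also high with TTX, at 25.8 ± 0.69 RPKM against 7.36 ± 2.38 untreated and 32.0 ± 10.3 with Bic/4AP. With TTX, the mean of Ifi202b was above untreated and those of Fam46a and Zdbf2 were below it.

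Gains also lay by genes whose RNA fell. Robo3, an axon guidance receptor, fell from 21.9 ± 4.10 to 0.143 ± 0.084 RPKM (SD, n = 3; limma adjusted p = 3.58e-09), with its gain 26.8 kb from the start. Syne1, a nuclear envelope protein, fell from 49.9 ± 8.87 to 10.2 ± 1.07 RPKM (adjusted p = 1.86e-08) with a gain over its promoter at chr10:5549294-5550857. Myo9b, Cd82, Zbtb17, Golga4, Krba1, Zscan25 and the short RNA genes Mir26a-1 and Snord55 were the other largest falls. With TTX, which silences the neurons, Robo3 had 0.239 ± 0.097 and Syne1 14.9 ± 0.71 RPKM, also below untreated. The other genes had TTX means below untreated as well, except Snord55 (6.04 against 3.53 RPKM). Rapgef5 was the only gene with 3 gains linked, and its RNA fell by 0.22 on the log2 scale (adjusted p = 0.00867).

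By gene list, gains were linked to 5 of 34 rapid activity genes (14.7%: Fosb, Gadd45b, Cyr61, Ier5 and Sik1), 4 of 34 late activity genes (11.8%) and 4 of 18 MAP kinase feedback genes (22.2%), against 4.60% of all genes. In the last list these were Dusp6 and Dusp10, phosphatases of MAP kinases, Errfi1, and Spred3, an inhibitor of Ras signalling. RNA of Dusp6 rose from 19.1 ± 2.19 to 58.6 ± 2.70 RPKM and of Dusp10 from 6.47 ± 1.09 to 14.2 ± 0.85, while Spred3 had 16.8 ± 1.24 and 18.8 ± 1.21 (SD, n = 3; limma adjusted p = 9.05e-09, 5.33e-06 and 0.0632). Sik1, a kinase that is itself a CREB target, had its gain at chr17:31854633-31855861 and rose from 10.9 ± 1.52 to 34.7 ± 0.76 RPKM. Among 26 histone acetylation genes, 4 (15.4%) had a gain: the acetyltransferases Kat7 and Kat8 and the deacetylases Hdac5 and Hdac6. RNA of Kat8 fell from 13.2 ± 0.56 to 5.31 ± 0.26 RPKM and of Hdac6 from 25.9 ± 0.51 to 19.3 ± 1.02, and the other two did not pass the test (SD, n = 3; limma adjusted p = 0.274 for Hdac5 and 0.156 for Kat7). A gain was linked to 1 of 73 excitatory synapse genes (Cacng4), to 2 of 26 inhibitory synapse genes (Glrb and Slc32a1) and to none of the astrocyte, oligodendrocyte, microglia, vascular, choroid plexus and progenitor markers.

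Of the 10 highest-ranking gains, 7 lay on a promoter window. Ranked by the lower of their score percentiles in the Bic/4AP lists, the first had no linked gene (chr13:76446506-76449834, percentiles 94.1 and 94.1). Bbs5, of the primary cilium (95.2 and 89.5), Spred3 (98.1 and 88.4), Nup153, a nuclear pore protein (87.0 and 88.1), and the repair nuclease Ercc5 (94.9 and 87.0) came next. Sik2, a kinase of the same family as Sik1, had chr9:51007022-51011013 (84.7 and 91.0), and its RNA rose from 14.5, 17.7 and 15.6 RPKM in untreated libraries to 34.9, 36.1 and 39.0 RPKM in treated ones. Faf2, Dus4l and chr15:72240289-72242741, which has no linked gene, also belonged to the set. The remaining site of the set is not reported here. Of the 7 genes named in it, RNA of Sik2 and Nup153 rose, that of Ercc5 and Dus4l fell, and that of Bbs5, Spred3 and Faf2 was not called.

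Losses were fewer and mostly lay away from starts. The top ones were chr1:30700148-30702287 (percentiles 94.2 and 89.2 in the untreated lists) and chr6:51876942-51886335 (88.4 and 99.1), both with no linked gene. Another, chr16:4557853-4559781, lay by Tfap4, a transcription factor whose RNA fell from 3.95 to 2.67 RPKM. Sema7a, a semaphorin, had its loss at chr9:57931927-57934219, the only one of the top 10 losses with a peak in both H3K4me1 lists, and its RNA fell from 15.2 to 9.41 RPKM. Large RNA falls by a loss included those of Pkd1 (polycystin-1; 39.2 ± 6.91 to 3.85 ± 0.23 RPKM) and Jakmip1 (43.5 ± 7.19 to 9.15 ± 1.42; SD, n = 3 each). With TTX, Pkd1 had 11.7 ± 0.51 and Jakmip1 23.3 ± 1.75 RPKM, also below untreated. Arl4d, a small GTPase of the rapid activity list, had a loss 31.2 kb away while its RNA rose from 4.24 ± 0.58 to 11.1 ± 0.24 RPKM. Of the 57 genes, 1 rose and 11 fell 2-fold or more, 1.75% and 19.3% against 3.31% and 17.7% of all genes.

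CpG methylation, measured in other animals, split the gains by place, as it did the other classes. On promoter windows the untreated median was 5.35% for sites in all 4 lists, 2.69% for the 7 losses and 5.29% for all sites. The 392 gains on promoter windows had a median methylation of 2.12% untreated (quartiles 0.894% to 6.28%), 2.27% with Bic/4AP and 2.14% with TTX. The 582 gains off promoter windows had 69.6% (quartiles 18.7% to 83.6%), 69.7% and 69.6%. Sites in all 4 lists off promoter windows had 51.2%, losses off promoter windows 61.6% and all sites off them 76.7%, untreated. The median at gains off promoters was thus above that at sites present in all lists and below that of all sites. Over all gains the medians were 12.8% untreated, 13.8% with Bic/4AP and 12.5% with TTX.

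Methylation differed little between treatments at gains. Over the CpGs listed in all libraries, the difference of Bic/4AP from untreated had a median of -0.01 percentage points (quartiles -1.12 to 0.88). It was lower in 489 and higher in 476 of 969 gains, and lower in 36005 and higher in 33729 of 70597 sites of all classes. At 18 gains it was 10 points or more lower and at 18 as much higher, all among the 577 off promoters. Of all 63489 sites off promoters, 4438 were as much lower and 4084 as much higher, a larger share than among gains. On and off promoters together, gains held a median of 37.5 CpGs in the untreated library and all sites 9. Means over fewer CpGs vary more, and the part of this in the shares was not tested. At losses the median difference was -0.20 points (quartiles -2.89 to 3.45). With 1 library per treatment and no coverage in the files, no test was made.

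**Figure D5:**
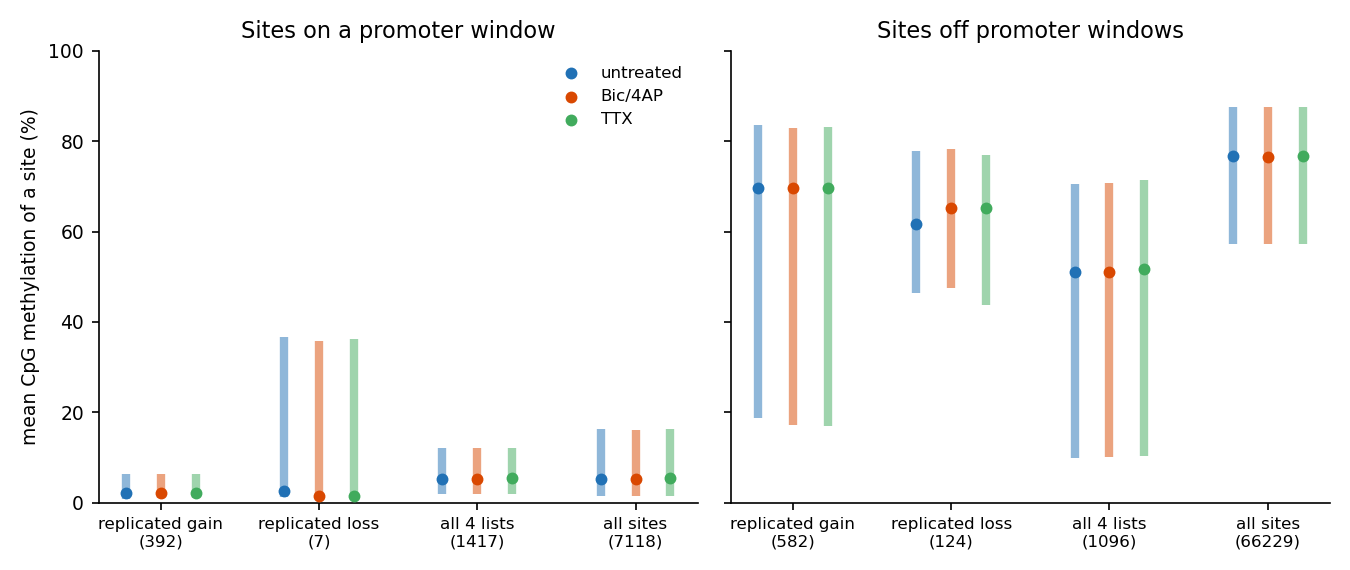
Mean CpG methylation in percent of sites on (left) and off (right) promoter windows, by class, in the untreated, Bic/4AP and TTX libraries, with points at the median and bars between the quartiles over sites (number of sites in brackets). Gains on promoters sit at 2.12% and gains off promoters at 69.6% untreated, and for gains the medians of the 3 libraries nearly coincide.

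H3K4me1 was rare at gains, as at sites of the second Bic/4AP list only. Both untreated H3K4me1 lists had a peak at 8 of 974 gains (0.821%, exact 95% interval 0.355% to 1.61%), against 6.11% of losses, 9.99% of sites in all 4 lists, 1.27% of sites in the second Bic/4AP list only and 4.54% of all sites. In either list it was found at 4.41% of gains, 23.7% of losses, 22.4% of sites in all 4 lists, 5.78% of sites in the second Bic/4AP list only and 13.6% of all sites. Off promoter windows, where the mark is more common, these were 6.53%, 23.4% and 34.9%. The interval covers counting error only, since neighbouring sites share a library.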

How the data were processed

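The 4 H3K27ac lists and the samples set beside them were grouped by their labels. Per the submitters' processing notes, the tools were MACS 1.4.1, Bowtie2 2.2.4, SAMtools 0.1.19 and TopHat, with the mm10 build and no role given to each. The deposited peak lists give, for each sample, each peak's position and the authors' score, and no depth. Whether an input entered the peak calling is not stated in the labels. The deposited RNA values are RPKM per gene, and the deposited methylation values are a fraction per CpG, without coverage, so their depth is unknown.

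Peaks were compared by overlap of 1 bp or more and merged over the 4 lists with Python 3.11.15, numpy 2.4.6 and pandas 2.3.3. Sites were linked to the gene with the nearest start within 50 kb of their middle. Starts came from RefSeq promoter windows (GRCm38.p6) for 17806 of 23841 genes with a position, and both ends of the gene stood in for the others. RPKM values were tested with limma 3.58.1 (trend = TRUE, R 4.3.3) after log2(RPKM + 1), which understates changes of low genes, over 14782 genes at 1 RPKM or more in 3 or more libraries, all 9 libraries in 1 fit and Benjamini-Hochberg adjustment at 0.05. On simulated data this step recovered 95% of 200 genes changed 2-fold. Those genes were drawn without the lowest ones, and all others were left unchanged. In the data 29.5% of genes were called higher and 42.6% lower, so the simulation does not show how reliable these calls are. Separate cultures are not named for the libraries, so their spread, on which the p-values rest, may be technical. Methylation of a site is the mean over its listed CpGs.

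The members, gene lists and tests were chosen with earlier results of these data known. Named sites are the 10 gains and 10 losses with the highest lower percentile and those of fixed activity and methylation genes, and named genes are up to 10 linked genes with the largest RNA change in each direction and up to 3 members of each list with the most gains or losses. The rapid activity genes with a gain are all named, which goes past that number. Sequences of the peaks themselves, planned for the named sites, and some items that the rule names are not reported here. Alternatives were score of 100 or more, equal list lengths, other overlap and merging distances, other links, RNA settings and samples left out.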

Additional observations from a re-analysis of the deposited data

How the results depend on the processing

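Peak counts depend on score and list length, and no read depth was given to set them by. With scores of 100 or more, the first pair had 1916 peaks with Bic/4AP only and 361 untreated only, the second pair 17181 and 13323, and there were 284 replicated gains and 12 losses. With equal list lengths there were 2734 peaks with Bic/4AP only in the first pair, 493 gains and 381 losses, and, at equal lengths within each pair, 232 gains on promoter windows. Leaving out a sample changes the pattern asked for: gains ranged from 1032 to 28048 (4106 without the second untreated list, 28048 without the first Bic/4AP list) and losses from 144 to 21635 (21635 without the first untreated list, 404 without the second, 1217 without the second Bic/4AP list). With every gene within 50 kb linked, 494 and 708 genes by gains rose and fell (30.2% and 43.3%, against 29.5% and 42.6% of all genes), and 39 and 74 by losses. With a limit of 5 kb, 4 and 10 genes by losses did. At 2-fold or more, chosen after seeing the data, 490 and 2618 of all genes rose and fell, 42 and 69 by gains and 1 and 11 by losses. Without a library, RNA calls ranged from 3891 to 4901 risen and 5514 to 6087 fallen. Methylation at gains was 8.82% for 905 sites with 5 or more CpGs listed in all libraries and 8.44% in the central 500 bp. H3K4me1 at gains was 4.41% in either list, and 2.57% to 2.67% in 1 list alone. The share of genes by gains that rose was above that of all genes in 15 of 15 settings (30.2% to 43.1%), and the share that fell was below it in 13. RNA replicate numbers did not pair the libraries (correlations of -0.007 to 0.018), and with the replicate block 4348 genes rose and 6253 fell, 266 and 257 of them by gains and 17 and 22 by losses. The cause of these shifts was not tested beyond the fewer peaks, genes or samples that each setting leaves. The other 88 comparisons of main results with an alternative stayed within 1.5 times the count or the error.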
